A study of Homo sapiens with 6 samples.

Results

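The integrated stress response and the unfolded protein response were followed through 33 genes, taken as a list of names with no threshold on their values, out of 21463 genes counted in each library. All 33 were found under their symbols, and all 33 passed the filter on low counts. The set holds ATF4 with 16 genes it is known to regulate or work beside, called the ATF4 arm here (17 genes), and 16 genes of protein folding and degradation in the endoplasmic reticulum, called the ER arm. Messenger RNA came from 3 human lung adenocarcinoma lines with mutant EGFR, with 1 parental and 1 drug-resistant library per line, 6 libraries in all. HCC827 and PC9 carry E19Del and their resistant sublines were selected with gefitinib. H1975 carries L858R/T790M and its resistant subline was selected with osimertinib. Both drugs inhibit the EGFR kinase, and selection ran for 90 days at rising dose, while the parental cells are labelled nontreated. The labels give IC50 values of 0.016 to 0.07 µM for parental cells and 4.288 to 12.485 µM for resistant ones. Whether a subline is 1 clone or a pool, and whether drug was in the medium at harvest, is not given in the sources used here.

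ATF4 is a transcription factor whose messenger RNA is translated better when a kinase phosphorylates the initiation factor eIF2α, as happens on amino acid shortage, heme shortage, viral RNA or misfolded protein in the endoplasmic reticulum. Its targets make and import amino acids, supply one-carbon units and, under lasting stress, include the death-promoting factor CHOP (DDIT3). In the endoplasmic reticulum, the sensors PERK, IRE1 and ATF6 respond to unfolded protein: PERK phosphorylates eIF2α, IRE1 splices the XBP1 messenger, and cleaved ATF6 and spliced XBP1 raise chaperones and degradation factors. ATF4 is controlled mainly in translation, IRE1 acts through splicing and ATF6 through cleavage, so gene-level RNA counts show none of these steps.

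The libraries held 21222102 to 29366085 exon reads. Levels are in CPM, exon reads relative to the library total after TMM scaling, and a ratio within a line is the log2 ratio of resistant to parental with 1 CPM added to both. Such a ratio rests on 1 library per state and has no p-value; parental and resistant states were compared over the 3 lines. No source used here gives separate cultures within a line. Epithelial markers were present: the 6 together summed to 2764 to 13363 CPM in parental and 1735 to 7571 CPM in resistant libraries, with 13363 and 5222 CPM in the parental and resistant libraries of HCC827. None was at 0, but EPCAM was at 432 and 10.6 CPM and CDH1 at 467 and 22.1 CPM in parental and resistant HCC827. In H1975 EPCAM was at 26.6 and 0.46 CPM and CDH1 at 22.4 and 0.131 CPM. In PC9 EPCAM was at 745 and 732 CPM and CDH1 at 213 and 151 CPM. The part of these marker differences in the results below was not tested. The lung lineage factor NKX2-1 was at 121 to 140 CPM in HCC827, 4.56 to 8.45 CPM in H1975 and at most 0.252 CPM in PC9. Of 5 leukocyte markers, which summed to 55.3 to 131 CPM in parental and 124 to 186 CPM in resistant libraries, CD68 made up most, while PTPRC was at most 0.419 CPM and at 0 in both H1975 libraries. The 4 endothelial markers summed to 1.46 to 20.2 CPM in parental and 1.05 to 5.94 CPM in resistant libraries. The 4 fibroblast markers summed to 14.8 to 64.1 and 18.3 to 131 CPM, mostly COL1A1, while DCN was at most 0.112 CPM. In bulk libraries, fewer cells with a transcript and less of it per cell cannot be told apart.

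The sequences next to the start sites were searched for known response elements. RefSeq windows (GRCh38.p14) from 250 bases before to 50 after an annotated start were searched on both strands. They were found for 32 of the 33 genes, 47 windows in all (25 for the ATF4 arm and 22 for the ER arm, so a gene can have several); SHMT2 had no window in the table. The motif TGATGNAA, the core bound by ATF4 with a C/EBP partner, was matched in 3 of 16 ATF4-arm genes (ASNS, CHAC1 and CEBPG), in 1 of 16 ER-arm genes (HERPUD1) and in 3.63% of all 34796 windows. The ER stress response element ERSE, CCAAT and CCACG with 9 bases between them, was matched in 7 of 16 ER-arm genes (XBP1, HSPA5, HSP90B1, CALR, CANX, PDIA6 and CRELD2), in 0 of the ATF4 arm and in 0.0776% of all windows. Its variant ERSE-II, ATTGG and CCACG with 1 base between them, was matched in HYOU1, SDF2L1 and HERPUD1, in 0 of the ATF4 arm and in 0.0546% of all windows. The element UPRE, TGACGTGG, was matched in HYOU1 and in 0.733% of all windows, and overlapped an ERSE-II there. Members are counted as genes with a match in any of their windows, and the shares of all windows count single windows. These units differ, and no share per gene was computed for all genes. Matches are descriptions of letters and not of binding.

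Left out here are the matches of HSP90B1, CANX, CRELD2 and SDF2L1 and a further ERSE-II of HYOU1. The ATF4-type matches of 4 genes and ER-type matches of 6 are shown as examples. Each runs 5′ to 3′ on the gene's strand with the match in capitals; a reverse-strand match therefore reads as the reverse complement of the motif.
ASNS, ATF4 type: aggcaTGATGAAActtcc
CHAC1, ATF4 type: tgccgTTGCATCActcct
CEBPG, ATF4 type: gcgtcTGATGCAAcctgc
HERPUD1, ATF4 type: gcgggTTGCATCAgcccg
HERPUD1, ERSE-II: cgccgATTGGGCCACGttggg
HSPA5, ERSE: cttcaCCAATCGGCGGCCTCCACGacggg
XBP1, ERSE: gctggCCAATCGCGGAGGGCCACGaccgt
CALR, ERSE: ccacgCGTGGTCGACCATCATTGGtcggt
PDIA6, ERSE: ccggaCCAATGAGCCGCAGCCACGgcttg
HYOU1, UPRE and ERSE-II: ccccgTGACGTGGTCCAATcccag
The stretches lie at chr7:97872464-97872481 (minus strand, ASNS), chr15:40953257-40953274 (plus, CHAC1), chr19:33374066-33374083 (plus, CEBPG) and chr16:56931961-56931978 and chr16:56932020-56932040 (plus, HERPUD1). Those of the ER arm lie at chr9:125241386-125241414 (minus, HSPA5), chr22:28800598-28800626 (minus, XBP1), chr19:12938379-12938407 (plus, CALR), chr2:10812848-10812876 (minus, PDIA6) and chr11:119057375-119057398 (minus, HYOU1). In GENCODE the ASNS and CHAC1 stretches overlap an exon of a transcript of the same gene, those of CEBPG and PDIA6 an intron, and the others lie upstream of every transcript of their gene.

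The comparison of states asked which of these genes differed with acquired resistance whatever the line or drug. No member passed the edgeR quasi-likelihood test with the line as a block (0 of 33, background 0% of 13541 genes). In edgeR 1 member, PDIA4, had an unadjusted p under 0.05, among 502 of the 13541 genes. DESeq2 called 0 of 33 members against 0.446% of all genes. Before adjustment PDIA4, PDIA6 and STC2 were under 0.05 in DESeq2, among 923 of the 13541 genes. In limma-voom 0 were called, with PDIA4 under 0.05 before adjustment, among 763 of the 13541 genes. Only 5 members kept 1 direction over the lines. CEBPG, STC2 and HERPUD1 were higher in all 3 resistant libraries, 9.09% of the members against 14.3% of all tested genes. PDIA4 and PDIA6 were lower in all 3, 6.06% against 13.5%. Both shares were below those of all genes.

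**Figure D1:**
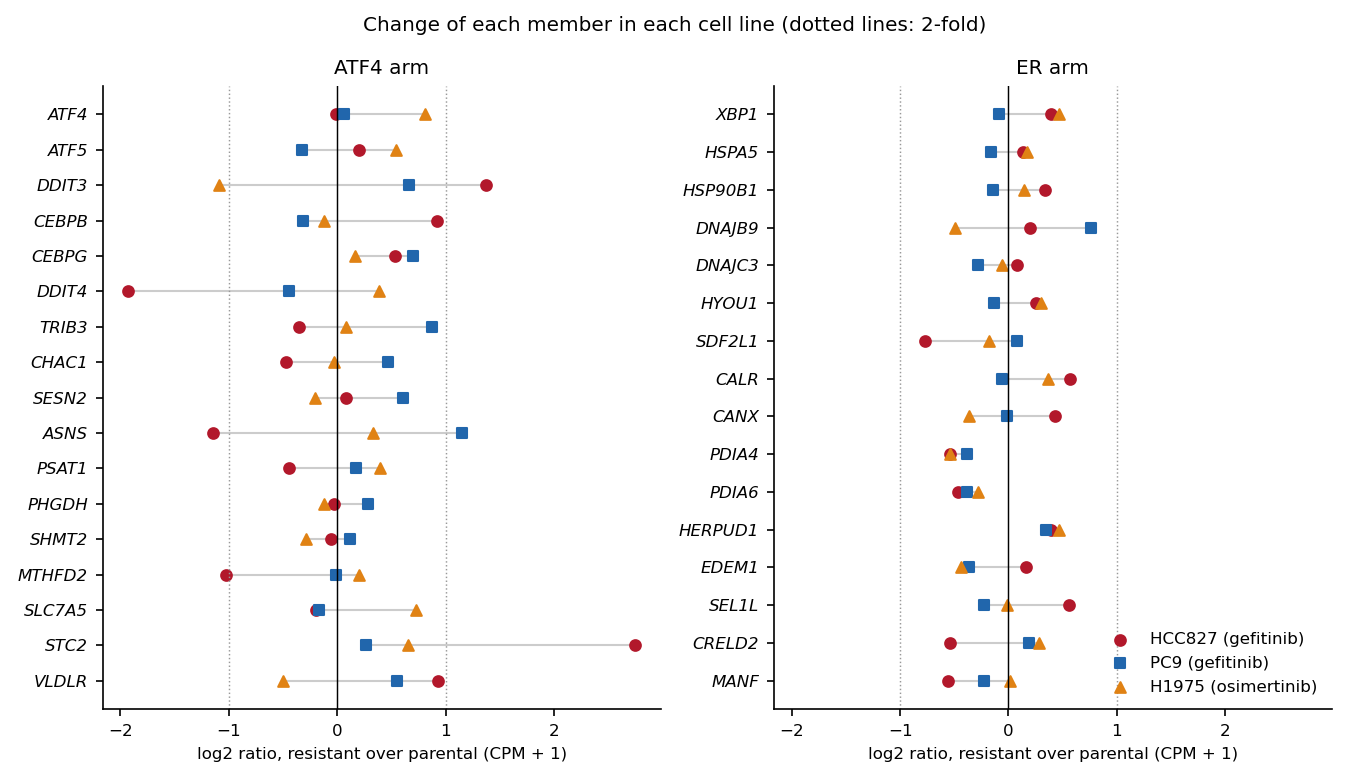
Log2 ratio of resistant to parental CPM (1 CPM added) for every member, 1 point per cell line, ATF4 arm on the left and ER arm on the right; dotted lines mark 2-fold. The ER arm stays within 2-fold in every line, while STC2 (2.75), DDIT3 (1.37), MTHFD2 (−1.03), ASNS (−1.15) and DDIT4 (−1.93) in HCC827, ASNS (1.15) in PC9 and DDIT3 (−1.09) in H1975 lie outside it.

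The transcription factors of the ATF4 arm did not share a pattern. ATF4 itself (ENSG00000128272, hg38 chromosome 22, 39519695 to 39522685, plus strand) was at 457 CPM in parental and 453 CPM in resistant HCC827, at 449 and 467 CPM in PC9, and at 161 and 282 CPM in H1975. The gefitinib-selected lines thus had ratios near 0 (−0.01 and 0.06), and H1975, which had the lowest parental level, had a ratio of 0.81. Its fitted log2 fold change over the lines was 0.28 ± 0.25 (SE; adjusted p = 0.903, edgeR).

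DDIT3, which encodes CHOP, differed in direction between lines. It was at 19.1 and 51.1 CPM in parental and resistant HCC827, at 6.59 and 11 CPM in PC9, and at 15.3 and 6.67 CPM in H1975. The ratio was 1.37 in HCC827, 0.66 in PC9 and −1.09 in H1975, where it was the lowest of the ATF4 arm. The fitted change over the lines was 0.35 ± 0.58 (SE; adjusted p = 0.944, edgeR), −0.24 without HCC827, 0.11 without PC9 and 1.09 without H1975. The difference between the gefitinib-selected lines and H1975 was 2.28 ± 0.66 on the log2 scale (SE; unadjusted p = 0.0234, adjusted p = 1, edgeR). This drug term called 0% of all genes, had 1 residual degree of freedom, and cannot be told apart from line and EGFR mutation. Only 38.6% of DDIT3 exon reads were counted as unique, and 3 other gene rows (MARS, AC022506.1 and MBD6) overlap its place; with unique reads alone the ratios were 1.35, 0.60 and −0.93, and DDIT3 no longer had an unadjusted p under 0.05 for the drug term.

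CEBPG, a dimer partner of ATF4, was higher in each resistant library, at 31.3 and 45.7 CPM in HCC827, 70.3 and 115 CPM in PC9, and 33.9 and 38.0 CPM in H1975. Its fitted change was 0.47 ± 0.19 (SE; adjusted p = 0.903, edgeR), and its levels in the 2 groups overlapped. CEBPB, the C/EBP factor of acute-phase and differentiation programmes, was above its parental level in HCC827 (0.92) and below it in PC9 (−0.32) and H1975 (−0.12). It was highest in PC9 in both states (120 and 96.2 CPM). ATF5, a relative of ATF4 that is also controlled in translation, had 0.20, −0.33 and 0.54, but only 17.9% of its reads were unique and 3 rows on the other strand overlap it.

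Of the 4 genes that restrain growth signals or feed back on the response, DDIT4 had the widest ratios. DDIT4 (REDD1), an inhibitor of mTORC1, was at 619 CPM in parental HCC827 and 161 CPM in the resistant library. It was at 82.8 and 60.1 CPM in PC9 and at 59.6 and 78.1 CPM in H1975. Parental HCC827 thus stood far above the other 5 libraries, and the ratio of −1.93 there was the lowest of all members in any line. In PC9 and H1975 the ratios were −0.45 and 0.38, and the fitted change was −0.66 ± 0.49 (SE; adjusted p = 0.903, edgeR), or −0.04 without HCC827 and −1.19 without H1975.

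TRIB3, a pseudokinase induced by ATF4 and CHOP that dampens both, was at 112 and 87.2 CPM in HCC827, 20.0 and 37.3 CPM in PC9, and 63.8 and 67.3 CPM in H1975. It was higher in the resistant PC9 library (0.87) and close to its parental level in H1975 (0.08). SESN2, a leucine sensor upstream of mTORC1, had ratios of 0.08, 0.61 and −0.21 in the order HCC827, PC9 and H1975. CHAC1, which degrades glutathione, had −0.47, 0.47 and −0.03; in H1975 it rested on 41 parental and 51 resistant reads, a ratio of 0.963 (95% exact counting interval 0.626 to 1.49). These 3 regulators were thus highest, relative to the parental library, in PC9.

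The 6 amino acid and one-carbon genes had a median ratio of −0.32 in HCC827. All 6 ratios there were below 0, as were those of 50.8% of all genes, and they ran from −0.03 for PHGDH to −1.15 for ASNS. In PC9 and H1975, 4 of the 6 were higher, with medians of 0.15 and 0.26. ASNS, asparagine synthetase (ENSG00000070669, hg38 chromosome 7, 97852118 to 97872542, minus strand), showed the sharpest split. It was at 80.5 and 35.6 CPM in HCC827, at 12.1 and 28.1 CPM in PC9, and at 55.7 and 70.1 CPM in H1975. Its ratios were −1.15, 1.15 and 0.33, so that the HCC827 and PC9 libraries moved towards each other, and the fitted change was 0.13 ± 0.50 (SE; adjusted p = 0.976, edgeR). Without PC9 that value was −0.43, without HCC827 0.76 and without H1975 0.03.

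MTHFD2, the mitochondrial folate dehydrogenase, was at 207 and 101 CPM in HCC827, 166 and 165 CPM in PC9, and 144 and 165 CPM in H1975. Resistant HCC827 lay below the other 5 libraries (ratio −1.03; −0.97 with unique reads, which were 46.8% of its reads). The fitted change was −0.28 ± 0.30 (SE; adjusted p = 0.912, edgeR), and 0.09 without HCC827. In the same line the share of reads from mitochondrial genes went from 3.32% to 6.62%; its part in the result was not tested. The serine synthesis enzymes PHGDH and PSAT1 had ratios of −0.03, 0.28 and −0.12, and of −0.45, 0.17 and 0.39. SHMT2, which splits serine in mitochondria, had −0.06, 0.12 and −0.29.

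SLC7A5, the LAT1 light chain that imports leucine, was at 579 and 504 CPM in HCC827, 682 and 604 CPM in PC9, and 195 and 323 CPM in H1975. Like ATF4 it was lowest in parental H1975 and higher in the resistant library of that line, with a ratio of 0.73.

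STC2, stanniocalcin 2, a secreted glycoprotein induced by ER stress and hypoxia (ENSG00000113739, hg38 chromosome 5, 173314713 to 173329503, minus strand), had the largest ratio of all members. It was at 143 and 969 CPM in HCC827, at 143 and 171 CPM in PC9, and at 196 and 308 CPM in H1975. The 3 parental libraries lay close together, and resistant HCC827 stood 6.78-fold above its parent. The ratios were 2.75, 0.26 and 0.65. The fitted change was 1.19 ± 0.56 (SE; adjusted p = 0.903, edgeR; adjusted p = 0.541, DESeq2), and 0.45 without HCC827. VLDLR, the very-low-density lipoprotein receptor, was at 25.5 and 49.4 CPM in HCC827, 7.76 and 11.8 CPM in PC9, and 2.55 and 1.51 CPM in H1975. In H1975 its ratio without added CPM was 0.593 (46 against 60 reads, 95% exact counting interval 0.395 to 0.886).

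**Figure D2:**
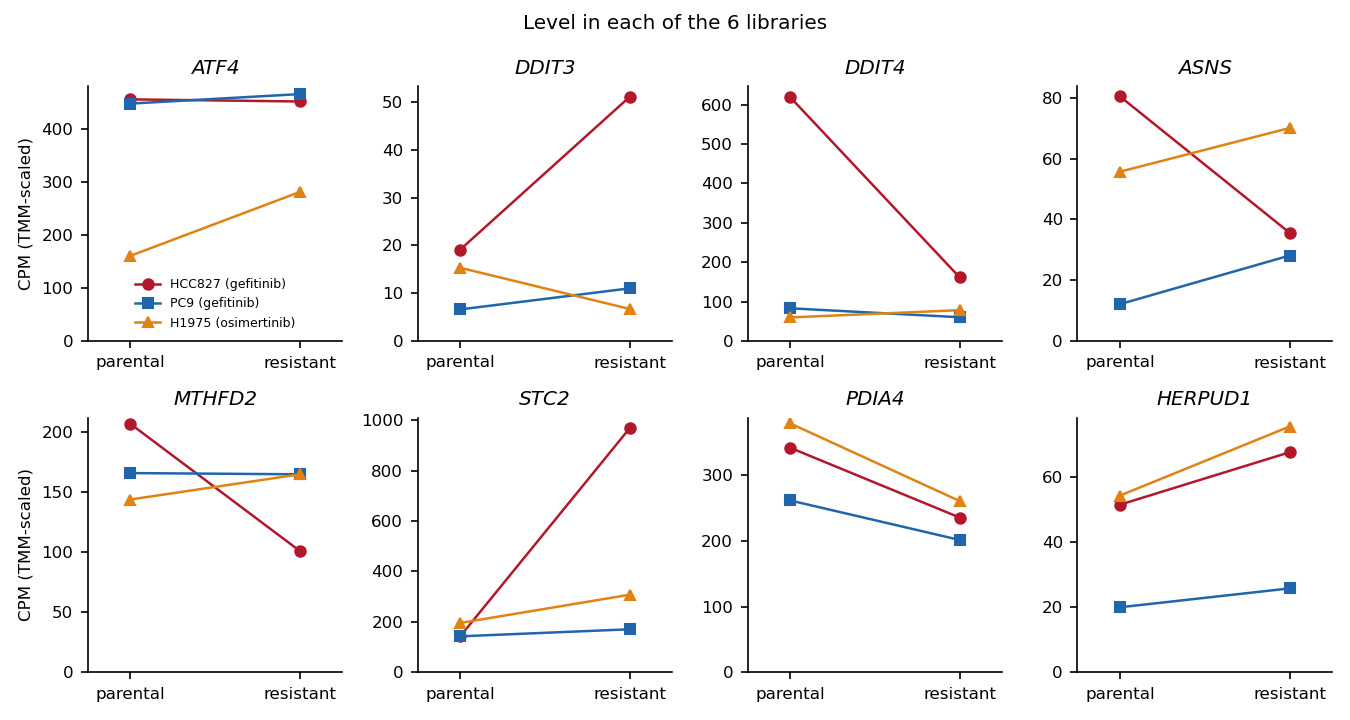
CPM of 8 members in each library, parental on the left and resistant on the right of each panel, 1 line per cell line, with each axis starting at 0. PDIA4 is lower and HERPUD1 higher in the resistant library of each of the 3 lines, while ASNS and DDIT3 cross and STC2 and DDIT4 differ mainly in HCC827.

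The ratios of the ER arm spread less than those of the ATF4 arm, a difference that was not tested. No ER-arm gene reached 2-fold in any line, and the largest ratios were 0.76 for DNAJB9 in PC9 and −0.77 for SDF2L1 in HCC827. Of all genes 10.5% were 2-fold higher and 7.65% lower in HCC827. These shares were 2.42% and 1.72% in PC9 and 1.76% and 3.22% in H1975, so 0 of 16 is near them there. HSPA5 (BiP), the main HSP70 chaperone of the endoplasmic reticulum and the usual read-out of the unfolded protein response (ENSG00000044574, hg38 chromosome 9, 125234853 to 125241330, minus strand), was at 800 and 877 CPM in HCC827, 780 and 700 CPM in PC9, and 950 and 1066 CPM in H1975. Its ratios were 0.13, −0.16 and 0.17, so that no member had a smaller largest ratio, and the fitted change was 0.05 ± 0.20 (SE; adjusted p = 0.978, edgeR).

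Of the other chaperones, HSP90B1, HYOU1 and DNAJC3 had ratios within ±0.5, while DNAJB9 and SDF2L1 went beyond that in 1 line each. HSP90B1, the HSP90 of the compartment, had ratios of 0.34, −0.14 and 0.14. HYOU1, a nucleotide exchange factor for BiP, had 0.25, −0.13 and 0.30. DNAJC3, a BiP cochaperone that also inhibits PERK, had 0.08, −0.28 and −0.06. DNAJB9, a BiP cochaperone that represses IRE1, was at 8.67 and 10.1 CPM in HCC827, 7.66 and 13.7 CPM in PC9, and 26.3 and 18.4 CPM in H1975, higher in the first 2 resistant libraries and lower in the third. SDF2L1, a partner of BiP cochaperones, was at 18.5 and 10.5 CPM in HCC827, with 0.08 and −0.18 as ratios in PC9 and H1975. XBP1 had ratios of 0.39, −0.09 and 0.47 and was highest in H1975, at 157 and 218 CPM; spliced and unspliced messengers are not separated in these counts.

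Of the lectin chaperones and disulfide isomerases, the 2 isomerases were lower in every line. PDIA4 (ENSG00000155660, hg38 chromosome 7, 149003062 to 149028641, minus strand) was at 341 and 235 CPM in HCC827, 261 and 201 CPM in PC9, and 378 and 260 CPM in H1975. It was the only member whose groups did not overlap (1 of 33, against 2.22% of all tested genes), by a margin of 261 over 260 CPM, and they overlapped when scaled by library size alone (254 and 274 CPM) and in TPM (218 and 258). In both of those settings MANF was the 1 member whose groups did not overlap. The ratios were −0.54, −0.38 and −0.54, and the fitted change was −0.49 ± 0.17 (SE; unadjusted p = 0.0399, adjusted p = 0.903, edgeR). PDIA6 was at 352 and 253 CPM in HCC827, 396 and 304 CPM in PC9, and 480 and 395 CPM in H1975, with a fitted change of −0.38 ± 0.18 (SE; adjusted p = 0.903, edgeR). Of its reads 72% were unique, and the H1975 ratio of −0.28 was −0.18 with unique reads alone. The lectin chaperone CALR had 0.57, −0.06 and 0.36, and its membrane-bound relative CANX 0.43, −0.01 and −0.36.

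Among the degradation genes, HERPUD1 was the most even member of the set. HERPUD1, a scaffold of the ubiquitin ligase that clears misfolded protein (ENSG00000051108, hg38 chromosome 16, 56932048 to 56944863, plus strand), was at 51.5 and 67.6 CPM in HCC827, 20.0 and 25.8 CPM in PC9, and 54.3 and 75.5 CPM in H1975. The ratios of 0.39, 0.35 and 0.47 had an SD of 0.06 over the 3 lines. The fitted change was 0.41 ± 0.16 (SE; unadjusted p = 0.0537, adjusted p = 0.903, edgeR). HERPUD1 is also the gene in whose window both an ATF4-type match and an ERSE-II are printed above. The part of these matches in its ratios was not tested. EDEM1, which hands mannose-trimmed proteins to degradation, had ratios of 0.16, −0.36 and −0.44. SEL1L, the adaptor of the ligase HRD1, had 0.56, −0.23 and −0.01. The secreted CRELD2 and the neurotrophic factor MANF, both released from cells under ER stress, were lower in HCC827 (−0.54 and −0.56), with 0.19 and −0.23 in PC9 and 0.28 and 0.01 in H1975.

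Set side by side among genes with at least 10 CPM in 1 library of a line, the arms had the following medians, whose difference was not tested. In HCC827 the median ratio was −0.02 for the ATF4 arm (7 of 16 higher), 0.18 for the ER arm (11 of 16 higher) and −0.01 for all 10298 genes (49.2% higher). In PC9 it was 0.21 for the ATF4 arm (11 of 16 higher), −0.13 for the ER arm (4 of 16 higher) and −0.02 for all genes (48% higher). In H1975 it was 0.26 for the ATF4 arm (10 of 14 higher), 0.00 for the ER arm (8 of 16 higher) and 0.06 for all genes (55.8% higher). The arm medians in HCC827 were −0.20 and 0.34 when at least 50 CPM was asked for.

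At least 2-fold differences were counted among members with at least 10 CPM in 1 library of a line. These were 32 in HCC827, 32 in PC9 and 30 in H1975. The counts below lie near the shares of all genes given beside them. In HCC827, 2 members were higher (DDIT3 and STC2; 10.5% of all genes were) and 3 lower (DDIT4, ASNS and MTHFD2; 7.65% of all genes). In PC9, 1 was higher (ASNS; 2.42% of all genes) and 0 lower (1.72%). In H1975, 0 were higher (1.76%) and 1 was lower (DDIT3; 3.22%). All of them belong to the ATF4 arm. ASNS in PC9 and DDIT3 in H1975 were under 2-fold with 5 CPM added in place of 1. Across all 17 ATF4-arm genes the SD of the ratios over genes was 1.06 in HCC827, 0.45 in PC9 and 0.48 in H1975, against 0.45, 0.30 and 0.34 over the 16 ER-arm genes.

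**Figure D3:**
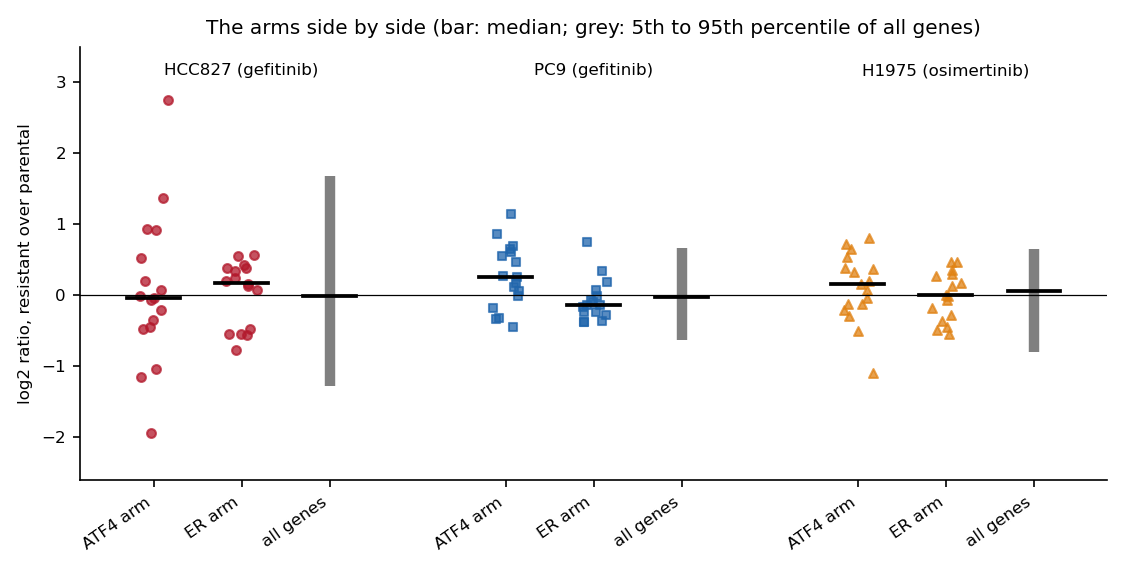
Log2 ratio of resistant to parental CPM for the 17 ATF4-arm and 16 ER-arm genes in each line, 1 point per gene, with black bars at the medians; grey bars run from percentile 5 to 95 of all genes with at least 10 CPM. By construction the grey bar leaves out the lowest and the highest 5% of all genes. ATF4-arm genes beyond it are STC2 and DDIT4 in HCC827, ASNS, TRIB3 and CEBPG in PC9, and ATF4, SLC7A5 and DDIT3 in H1975. Every ER-arm gene but DNAJB9 in PC9 lies inside it.

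For 28 of the 33 members (84.8%, against 75.5% of all tested genes) the log2 range over the 3 parental libraries was wider than the largest ratio within any line. The widest was that of SEL1L, 3.40, from 30.2 CPM in PC9 to 328 CPM in H1975, followed by DDIT4 at 3.36. STC2, MTHFD2, PDIA4, PDIA6 and CRELD2 were the exceptions. Across the 33 members Pearson's r of the ratios was 0.11 between HCC827 and PC9, −0.10 between HCC827 and H1975, and −0.15 between PC9 and H1975; these describe genes, which are not replicates, and the lines share no library.

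Per length, the ER arm held most of the abundant members. In TPM, CALR was the highest of the 33 in every library (951 to 2211), followed by median level by HSP90B1 (545 to 960) and HSPA5 (448 to 825). ATF4 was the highest transcription factor by median (207 to 464), with a rank from 4 to 8. VLDLR (0.499 to 12.8), CHAC1 (2.46 to 10.6) and SESN2 (4.52 to 11) were at the low end. The summed TPM of the ER arm made up 0.316% and 0.353% of all TPM in parental and resistant HCC827, 0.383% and 0.346% in PC9, and 0.591% and 0.599% in H1975. That of the ATF4 arm made up 0.256% and 0.203% in HCC827, 0.169% in both PC9 libraries, and 0.13% and 0.157% in H1975. H1975 thus had the highest ER-arm and the lowest ATF4-arm share in both states.

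**Figure D4:**
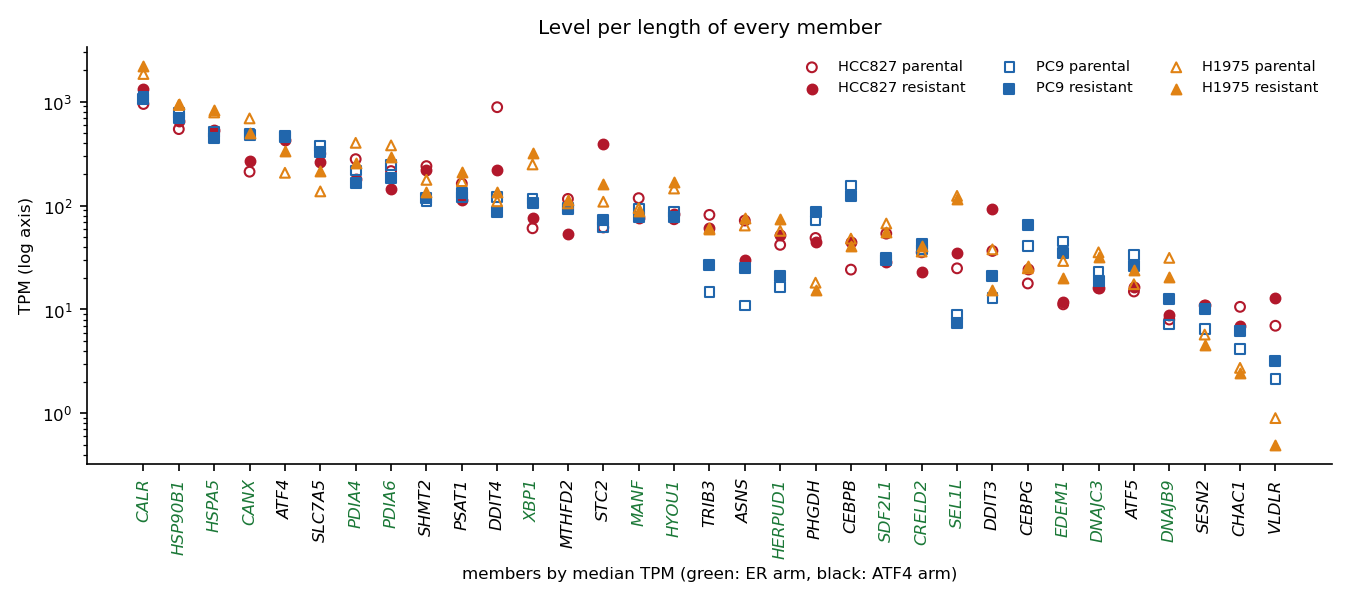
TPM on a log axis for every member in the 6 libraries, ordered by median, open symbols parental and filled symbols resistant; green names belong to the ER arm. CALR is highest throughout, DDIT4 in parental HCC827 (886) and STC2 in resistant HCC827 (395) stand out above their other libraries, and VLDLR is lowest in H1975.

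Intron reads, which come largely from unspliced transcripts and were not used to choose the genes, gave another readout for 22 members, in 46 pairs of libraries with at least 50 intron reads in both. The intron ratio had the sign of the exon ratio in 12 of 13 pairs in HCC827, 8 of 13 in PC9 and 15 of 20 in H1975, against 72.7%, 63.6% and 75.8% of all genes with as many intron reads. STC2 in HCC827 went from 252 to 1874 intron reads, a log2 ratio of 2.94 beside 2.75 in exons. In H1975 its intron ratio was 0.69 beside 0.65, and in PC9 −0.50 beside 0.26. PDIA4 was lower in introns in all 3 lines (−1.25, −0.79 and −0.22). SLC7A5 in H1975 had an intron ratio of 1.28 beside 0.73. In PC9 the intron ratio of all genes had a median of −0.34, so intron values there lie low as a whole. Pearson's r over the pairs was 0.94 in HCC827 (0.80 without STC2), 0.36 in PC9 and 0.57 in H1975. With at least 200 intron reads in both libraries, 8 of 12 pairs had the same sign, 2 of 5 of them in PC9.

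**Figure D5:**
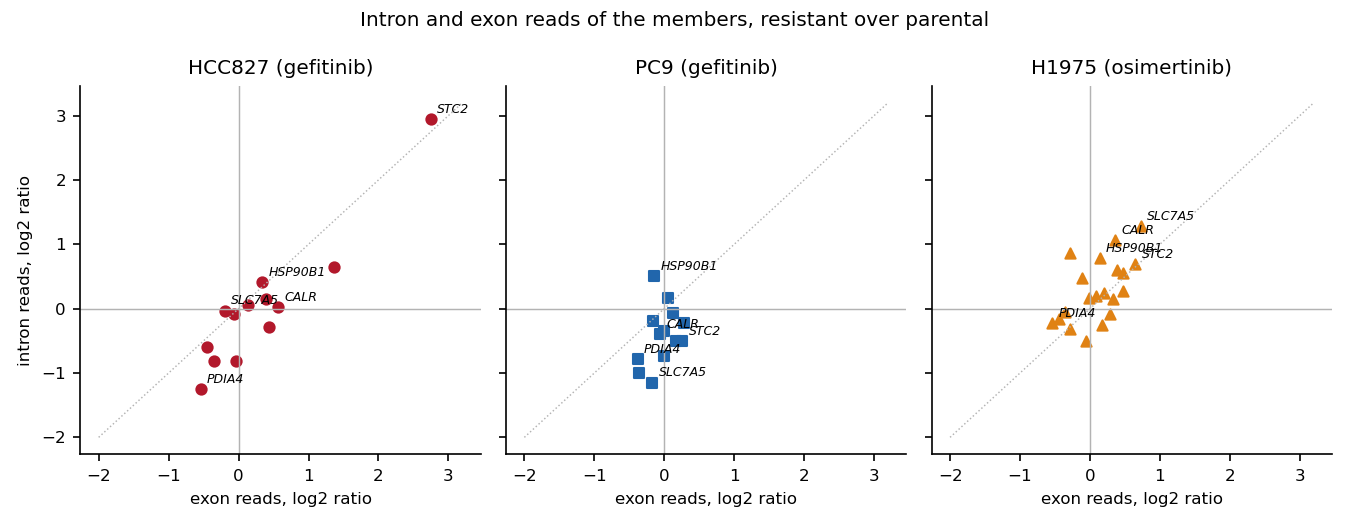
Log2 ratio of intron reads against log2 ratio of exon reads, resistant over parental, for the members with at least 50 intron reads in both libraries of a line (13, 13 and 20 points); the dotted line marks equal ratios. STC2 in HCC827 lies on it at the upper right, and most PC9 points lie below it.

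In the ER arm, the genes with an ERSE or ERSE-II match were set beside those without, and the difference was not tested. Only exact matches within the windows count, so a gene without a match may hold an element elsewhere or in other letters. Of all genes with at least 10 CPM, 49.2% were higher in HCC827, 48% in PC9 and 55.8% in H1975. The 10 with a match had a median ratio of 0.30 in HCC827 (7 higher), −0.07 in PC9 (3 higher) and 0.23 in H1975 (7 higher). The 6 without (DNAJB9, DNAJC3, PDIA4, EDEM1, SEL1L and MANF) had 0.12 (4 higher), −0.26 (1 higher) and −0.25 (1 higher). PDIA6, which has the ERSE printed above, was lower in every line along with PDIA4, which has none in its windows.

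The rest of the pathway was read from 6 lists of 83 genes, of which 81 passed the filter on low counts. In edgeR 0 of them passed in either direction, against 0% of all genes. At an unadjusted p under 0.05 in edgeR there were 3 of the 81, beside 502 of all 13541 genes. DESeq2 called 0 of them, against 0.446% of all genes. Of the 81, 12 were higher in all lines (14.8%, against 14.3% of all tested genes) and 5 lower (6.17%, against 13.5%). Among 15 sensors and regulators, 1 was higher and 2 lower in all lines. EIF2AK3, which encodes PERK, had ratios of 0.10, −0.14 and 0.29, and ATF6 0.59, −0.41 and 0.02. ERN1, which encodes IRE1, was lower in each line, at 10.7 and 6.07 CPM in HCC827, 14.0 and 12.3 CPM in PC9, and 39.1 and 20.4 CPM in H1975 (fitted −0.65 ± 0.27, SE; adjusted p = 0.903, edgeR). The viral RNA kinase EIF2AK2 (PKR) was the other, at −0.82, −0.13 and −0.05. PPP1R15A (GADD34), the subunit that reverses eIF2α phosphorylation, was higher, at 41.5 and 160 CPM in HCC827, 43.7 and 48.0 CPM in PC9, and 28.4 and 31.4 CPM in H1975.

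Of 15 further amino acid genes, 3 were higher in all lines and 0 lower, and the list medians were 0.24, 0.23 and 0.31 in HCC827, PC9 and H1975. In HCC827 this median had the opposite sign to that of the 6 members above. ALDH1L2, a mitochondrial folate dehydrogenase, was at 4.59 and 24.1 CPM in HCC827, 0.533 and 0.797 CPM in PC9, and 15.3 and 32.3 CPM in H1975. Its fitted change was 1.41 ± 0.45 (SE, adjusted p = 0.903, edgeR). Only 32.3% of its reads were unique, and its direction in PC9 rests on few reads. SLC3A2, the heavy chain that pairs with SLC7A5, had 0.25, 0.18 and 0.59, and the mitochondrial MTHFD1L 0.16, 0.32 and 0.43. None of the 13 aminoacyl-tRNA synthetases kept 1 direction, with list medians of −0.21, 0.15 and 0.27 in HCC827, PC9 and H1975.

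Of 11 other stress outputs kept by the filter, 3 were higher and 1 lower in all lines. NUPR1, a stress-induced chromatin protein, was at 5.43 and 65.5 CPM in HCC827, 0.388 and 1.64 CPM in PC9, and 6.41 and 9.10 CPM in H1975. Its fitted change was 2.06 ± 0.71 (SE, adjusted p = 0.903, edgeR), and its direction in PC9 rests on few reads. The peptide hormone ADM2 had 0.59, 0.74 and 0.53, and the repressor JDP2 −0.42, −0.53 and −0.04. The death gene BBC3 (PUMA) had 0.02, 0.16 and 0.25. Of 14 further folding genes, 2 were higher and 2 lower throughout. The isomerase P4HB had 0.37, 0.24 and 0.22 and the prolyl isomerase FKBP14 0.75, 0.07 and 0.17. The isomerase PDIA3 had −0.02, −0.12 and −0.05, and the oxidase ERO1A, which recharges the isomerases, −1.08, −0.35 and −0.04. Of 13 degradation and export genes kept, 3 were higher and 0 lower in all lines. SEC24D, a cargo adaptor of COPII vesicles, had 0.70, 0.61 and 0.29 (fitted 0.54 ± 0.18, SE; adjusted p = 0.903, edgeR). DERL2, a channel component of degradation, had 0.03, 0.05 and 0.12, and the ubiquitin-like modifier UFM1 0.19, 0.29 and 0.06.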

How the data were processed

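Each of the 6 libraries had 1 deposited table of 21463 genes. The authors' deposited counts are whole numbers of total, unique, exon and intron reads per gene, and the deposited TPM values are reads per exon length scaled to a common library total, per the file headers. Trimmomatic, Bowtie2 and hg38 are named in the submitters' processing notes without roles or versions. No source used here names the counting tool, its use of strand or what unique means. A series table of TPM differed from the library tables by at most 0.005 and gave no result.

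Total exon counts of all genes were kept by filterByExpr (minimum count 10, total 15; 13541 genes), scaled by TMM and tested with edgeR 4.0.16 (R 4.3.3) by the two-sided quasi-likelihood test, adjusted by Benjamini-Hochberg over the whole table, threshold 0.05. The cell line was the block, since both libraries of a pair come from the same line (2 residual degrees of freedom). A further fit tested the gefitinib-selected lines against H1975 (1 residual degree of freedom). DESeq2 1.42.0 and limma-voom (limma 3.58.1) were alternatives, beside other scalings, filters, added CPM, unique reads, TPM and leaving out each line. The edgeR fits were also run on simulated counts with less spread than these data and no differences between lines. That run checks the code and does not bear on power here. Counting intervals are exact at 95% and cover counting error only; a count of 0 allows 3 reads, 0.0985 to 0.145 CPM by library.

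The members and the pathway lists were chosen with earlier results of these data known. All 33 members are named. From each pathway list, up to 3 genes with all ratios in 1 direction are named, those whose smallest ratio was largest in size. EIF2AK3, ERN1, ATF6 and PPP1R15A are named in any case. The list genes were thus picked by the same ratios that their fitted values describe. BBC3 and PDIA3 were named after their values were seen, to complete counts. The aminoacyl-tRNA synthetases were matched by gene ID. Promoter windows are from RefSeq (GRCh38.p14) and locations from GENCODE v44. Protein sequences were not used here.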

Additional observations from a re-analysis of the deposited data

How the results depend on the processing

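With DESeq2, 58 genes of all were called over the lines and 72 for the drug term, against 0 in edgeR (502 and 434 at an unadjusted p under 0.05), and no member was among them; limma-voom called 0 over the lines (763 under 0.05). With no replicate block, which drops the pairing by line, 0 members were called and ASNS had a fitted change of −0.15; no call changed. ASNS was at −0.03 with limma-voom. Leaving out 1 line, ASNS ranged from −0.43 (without PC9) to 0.76, DDIT3 from −0.24 (without HCC827) to 1.09 and MTHFD2 from −0.51 to 0.09 (without HCC827). With library size alone, and with TPM, 4 ER-arm genes were lower in all lines in place of 2. For single genes, 9 values moved by more than the spread and kept their direction. They were ratios of PDIA4, PDIA6 and HERPUD1 with library size alone, TPM or unique reads. The HERPUD1 ratio in HCC827, for example, was 0.29 with library size alone in place of 0.39. With 5 CPM added, and with at least 50 CPM, 0 members were 2-fold higher in PC9 and 0 were 2-fold lower in H1975; the latter was also 0 with unique reads. With at least 50 CPM, which leaves fewer genes, the HCC827 medians were −0.20 (ATF4 arm) and 0.34 (ER arm). Leaving out 1 line at a time, which asks for 2 lines in place of 3, 3 to 6 ATF4-arm genes were higher and 1 to 3 lower in all remaining lines, and 2 to 6 ER-arm genes were higher and 3 to 6 lower. The changes with a higher minimum or a line left out come with fewer genes or lines; the cause of the others was not tested. Of the other alternatives, 160 values that answer a comparison and 679 for single genes kept their direction and side of the threshold or moved by less than the spread.

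The lines are the only replicates, so depth limits little beside their number: members had at least 41 reads in every library, and intron ratios rest on 50 reads or more. Drug, EGFR mutation and line cannot be told apart for H1975. The planned comparison of protein ends was not run, as no protein sequences were used here.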
